A study of Mus musculus with 4 samples.

Results

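The receptor tyrosine kinases examined here, with their ligands and co-receptors, are 58 genes found by name in the deposited expression tables, of 24319 gene names in all. They comprise 30 receptors, 25 secreted ligands, 2 GDNF-family co-receptors (Gfra1 and Gfra3) and Fgf13, an intracellular relative of the fibroblast growth factors. RNA was sequenced from 2 normal mouse prostates and 2 prostate tumours of TRAMP mice, a model in which the rat probasin promoter drives SV40 T antigen in prostate epithelium. The normal prostates were from wild-type F1 males of C57BL/6 and FVB mice, aged 22 weeks. The tumours were from F1 males heterozygous for the Probasin-SV40 transgene, bred from C57BL/6 TRAMP fathers and wild-type FVB mothers, and were labelled as late stage at 24 weeks. No treatment was given to either group beyond the transgene, and the groups also differed in the labelled age. Each normal RNA came from a single prostate, whereas for the tumours the labels give sample names but do not state separate animals. The p-values set the difference between the groups against the spread of these 4 samples within their groups. For the tumours, the labels do not tell whether that spread is between animals or technical.

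Receptor tyrosine kinases are cell-surface proteins with an extracellular ligand-binding region and a kinase inside the cell. Ligand binding brings receptors together, they phosphorylate each other, and adaptors then start the RAS to ERK and PI3K to AKT cascades. In the prostate, fibroblast and epidermal growth factors are best known as signals between stroma and epithelium during growth, and KIT is best known from mast cells, germ cells, melanocytes and gut pacemaker cells. Levels are given as FPKM (fragments per kilobase of transcript, relative to the size of the library) divided by a scaling factor for each library, called scaled FPKM below. Differences are tumour minus normal on the log2(scaled FPKM + 1) scale, with the standard error (SE) from limma, and a gene was called changed at an adjusted p under 0.05 over 13162 genes tested.

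The promoters of 4 of the 5 genes that changed are shown, Kit and its ligand Kitl (higher in tumours) and Ddr1 and Fgfr2 (lower). Each is the 250 bases before the RefSeq transcription start nearest to the deposited gene start (GRCm38.p6), read 5′ to 3′ on the strand of the gene. Capitals mark the GC box GGGCGG on either strand (CCGCCC on the opposite one), and overlapping matches were counted separately.
Kit, chr5:75574737-75574986, plus strand: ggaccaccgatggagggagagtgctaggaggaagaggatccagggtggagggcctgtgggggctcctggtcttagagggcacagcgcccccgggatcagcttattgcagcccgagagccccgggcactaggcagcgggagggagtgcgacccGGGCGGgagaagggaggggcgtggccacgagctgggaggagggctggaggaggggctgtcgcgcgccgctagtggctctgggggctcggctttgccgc
Kitl, chr10:100015571-100015820, plus strand: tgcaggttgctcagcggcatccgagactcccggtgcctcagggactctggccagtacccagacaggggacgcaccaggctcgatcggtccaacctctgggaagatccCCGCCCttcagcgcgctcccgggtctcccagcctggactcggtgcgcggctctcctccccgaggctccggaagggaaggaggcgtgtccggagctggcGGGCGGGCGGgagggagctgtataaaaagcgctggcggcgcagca
Ddr1, chr17:35704140-35704389, minus strand: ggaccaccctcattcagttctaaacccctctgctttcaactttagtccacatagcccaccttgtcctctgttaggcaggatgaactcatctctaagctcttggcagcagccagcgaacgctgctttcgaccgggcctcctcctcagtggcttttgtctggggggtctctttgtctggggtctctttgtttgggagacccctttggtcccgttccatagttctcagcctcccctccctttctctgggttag
Fgfr2, chr7:130266809-130267058, minus strand: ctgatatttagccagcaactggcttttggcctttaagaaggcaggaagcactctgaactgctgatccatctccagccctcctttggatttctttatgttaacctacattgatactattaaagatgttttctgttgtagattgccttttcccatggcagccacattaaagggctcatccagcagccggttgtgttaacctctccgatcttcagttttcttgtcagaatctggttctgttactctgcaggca
The Kit window held 1 GC box and the Kitl window 3, whereas the Ddr1 and Fgfr2 windows held 0. Of 32851 such promoter windows, 32.7% held at least 1. The CpG count was 17 for Kit, 23 for Kitl, 5 for Ddr1 and 2 for Fgfr2, beside a median of 6 over all windows. GC content was 70.8%, 69.2%, 54.4% and 44.0% in the same order. RefSeq lists 2 starts for Kit and 4 for Ddr1, so other promoters may be in use, and these matches describe the letters only. Kit was tested only because of its level in the tumours, so its direction supports nothing. Bdnf, the fifth gene that changed, has 7 listed starts and none is printed. Of the 58 genes, 44 had a promoter entry.

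Across the 58 genes, 3 rose in the tumours (Kit, Kitl and Bdnf) and 2 fell (Fgfr2 and Ddr1). Among all genes tested, 9.85% rose and 8.27% fell, 18.1% together. Of the 58, 35 had a deposited FPKM of at least 1 in 2 libraries and were tested, so the 5 genes that changed were 14.3% of them. Of those 35, 27 passed this filter through both groups, 7 through the tumours alone (Kit, Bdnf, Ntrk2, Ret, Pdgfra, Erbb4 and Ddr2) and Ntrk3 through the normal prostates alone. A deposited level higher in that group was a condition of testing these genes, so their direction supports nothing. At an unadjusted p under 0.05, 7 were higher and 7 lower, beside 21.5% and 18.3% of all genes (39.8% together). The tumours lay above both normal prostates for 8 genes, which are Kitl and the 7 just named, and below both for 11, and the groups overlapped for 16, whereas over all genes the groups did not overlap for 71.1% (37.7% higher and 33.3% lower). The median log2 difference was -0.23 over the 35 genes and 0.07 over all genes tested. The remaining 23 were not tested, of which Areg, Ereg, Fgf2, Gfra3 and Gdnf were listed at 0 in all 4 libraries.

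**Figure D1:**
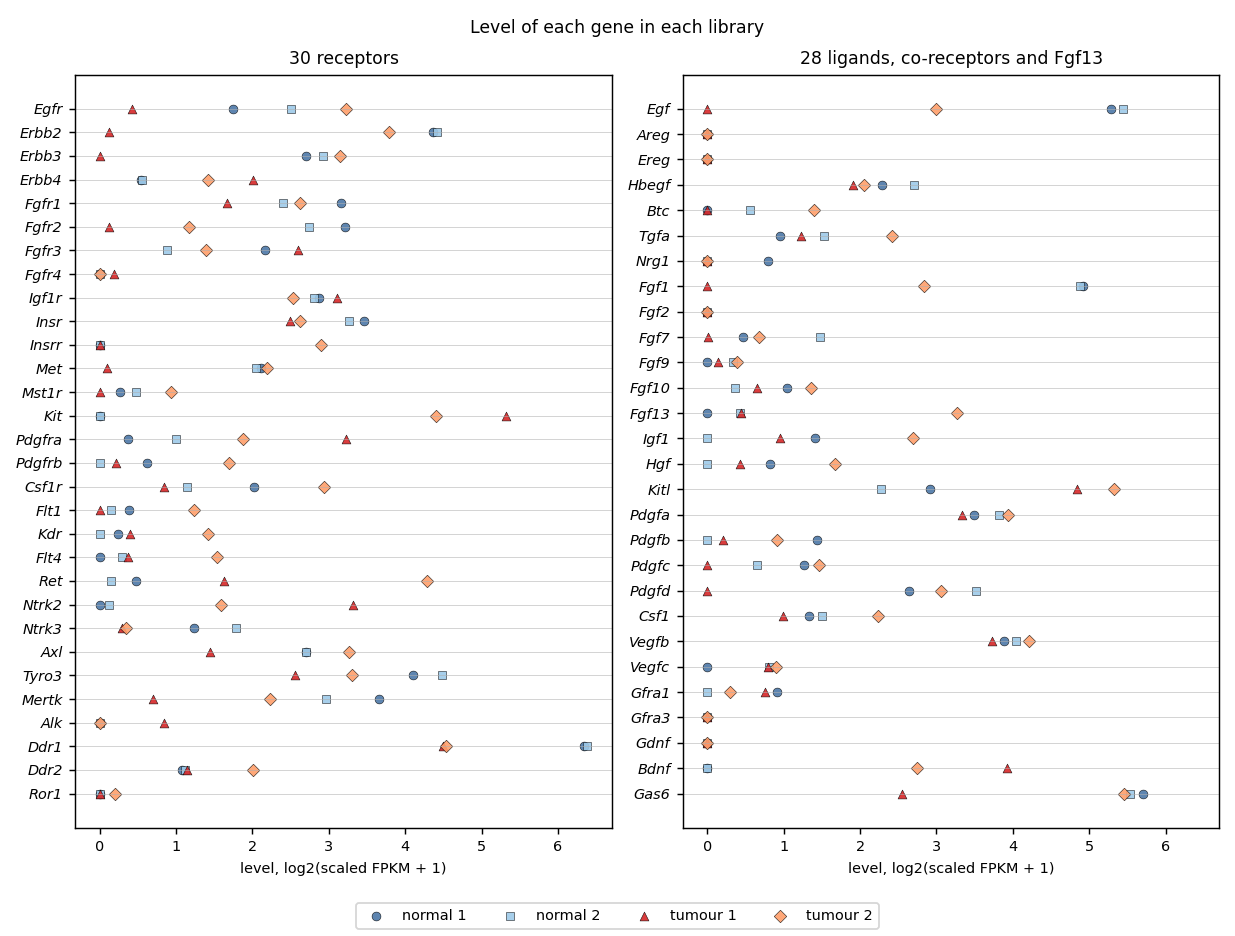
Level of each of the 58 genes in each library, as log2(scaled FPKM + 1), with receptors on the left and ligands, co-receptors and Fgf13 on the right; each symbol is 1 library. Kit and Bdnf sit at 0 in both normal prostates and well to the right in both tumours, Ddr1 and Fgfr2 sit to the left in both tumours, and for many other genes tumour 1 is the lowest and tumour 2 the highest.

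The libraries differed in several measures, some of which moved with the groups. Fragments implied by the deposited confidence bounds were 985509 to 1578847 in the normal prostates and 1141314 to 1431957 in the tumours. Scaling factors were 0.689 to 0.793 in the normal prostates and at least 1.34 in the tumours, so scaling lowered the tumours against the normal prostates by 0.94 on the log2 scale. The summed scaled FPKM of 7 luminal epithelial markers was 1891 and 2268 in the normal prostates, 317 in tumour 1 and 1111 in tumour 2. In tumour 1 Cdh1, Spdef and all 4 basal markers were listed at 0 and Krt8 was at 0.258, so most epithelial markers were near absent there, whereas Hoxb13, a prostate lineage factor, was at 295. The 7 neuroendocrine markers summed to 5.94 and 3.62 in the normal prostates, 478 in tumour 1 and 792 in tumour 2. Macrophage markers (9 genes) were 20.6 and 25.0 against 194 and 605, fibroblast markers (7 genes) 123 and 98.2 against 77.7 and 425, and smooth muscle markers (6 genes) 389 and 336 against 20.8 and 73.1. Pericyte markers (4 genes) were at most 7.63 in the normal prostates, 1.24 in tumour 1 and 19.7 in tumour 2, and endothelial markers (6 genes) 15.2 and 9.94 against 16.3 and 44.6. Mast cell markers (5 genes) were listed at 0 in all libraries except tumour 2, where they summed to 5.26. Adipocyte markers (4 genes) were 12.7 and 14.3 against 4.16 and 68.5, Schwann cell markers (4 genes) 2.27 and 1.79 against 0.611 and 2.16, and T and NK cell markers (4 genes) 1.51 and 1.12 against 0.183 and 0.516. All 5 seminal vesicle markers were listed at 0 throughout. The part of cell makeup in the differences below was not tested, and in bulk tissue fewer cells of a type and less RNA per cell cannot be told apart.

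Kit, the receptor for stem cell factor, reached a scaled FPKM of 38.9 in tumour 1 and 20.2 in tumour 2, and was listed at 0 in each normal prostate. These levels rested on about 416 and 186 fragments. Both tumours were therefore far above the normal prostates, and Kit showed the highest fitted log2 difference of the 35 genes, 4.86 (SE 0.49, limma adjusted p = 0.0195), a value that depends on the pseudocount. Kit was tested only because its level in the tumours passed the filter, so it could not have been found lower. The gene lies at chr5:75574987-75656721 on the plus strand of mm10. In tumour 1, where Kit was highest, the mast cell markers Cpa3, Mcpt4, Cma1, Tpsb2 and Fcer1a were all at 0, whereas in tumour 2 Mcpt4 and Fcer1a were at 0 and the other 3 were detected. The 7 neuroendocrine markers were above 0 in both tumours, and so was every fibroblast, macrophage and endothelial marker. Each of the other lists had a marker at 0 in a tumour. A link of Kit to any of these markers was not tested. Csf1r was the largest of this receptor family in the normal prostates, and Kit supplied 80.7% of the summed receptor level in tumour 1 and 63.5% in tumour 2.

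Kitl, which encodes stem cell factor itself, was at 6.57 and 3.84 in the normal prostates and at 27.7 and 39.2 in the tumours. Both tumours were above both normal prostates, the mean being 6.42 times higher, with a log2 difference of 2.49 (SE 0.41, limma adjusted p = 0.0275). The receptor and its ligand were thus both higher in each tumour, tumour 1 having the higher Kit level and tumour 2 the higher Kitl level. For Kit, a higher deposited level in the tumours was a condition of testing it. Kitl lies at chr10:100015824-100100412 on the plus strand. Its call was lost in 5 of 12 alternative analyses, including without either tumour (adjusted p = 0.0918 without tumour 1 and 0.0836 without tumour 2), over a range of 0.0185 to 0.294. Without either normal prostate no gene of the 13162 was called by limma, so the calls of all 5 genes rest on having both. The log2 difference of Kitl was 2.81 without normal prostate 1 and 2.17 without normal prostate 2.

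None of the PDGF and CSF1 receptors and their ligands passed the threshold, and Pdgfra alone had an unadjusted limma p under 0.05. Pdgfra, a receptor of mesenchymal cells, was at 0.293 and 0.992 in the normal prostates and at 8.39 and 2.68 in the tumours. Although the groups did not overlap, the log2 difference of 1.87 (SE 0.61) did not pass the threshold (limma adjusted p = 0.0895). It passed on the FPKM as deposited (adjusted p = 0.0399, with 0.0399 to 0.416 over the 12 alternatives). Csf1r, the macrophage growth factor receptor, was at 3.04 and 1.20 against 0.787 and 6.68, and its ligand Csf1 at 1.51 and 1.84 against 0.995 and 3.72, so tumour 1 was lowest and tumour 2 highest for both. Pdgfrb, the pericyte receptor, was at most 2.24, in tumour 2. Among the PDGF ligands, Pdgfa was the most abundant at 10.3 and 13.1 against 9.11 and 14.3, and Pdgfb and Pdgfc stayed at or below 1.76. Pdgfd was at 5.26 and 10.5 in the normal prostates, listed at 0 in tumour 1 and at 7.32 in tumour 2, so that the tumours differed by over 8-fold on the scaled FPKM + 1 scale. The comparison of both tumours with the normal prostates gave a log2 difference of -1.56 (SE 1.09, limma adjusted p = 0.334).

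Bdnf, the brain-derived neurotrophic factor, was the only other gene of the 58 that rose. Its level was 14.1 in tumour 1 and 5.67 in tumour 2, with neither normal prostate above 0, resting on about 117 and 35.0 fragments. The groups did not overlap, and the fitted log2 difference was 3.33 (SE 0.53, limma adjusted p = 0.0269), which again depends on the pseudocount. Like Kit, it passed the filter through the tumours alone. Bdnf lies at chr2:109674700-109727043 on the plus strand, and its exons overlap those of Gm45346 on the opposite strand. The sources used here do not give the strand setting of the counting, so reads of these genes cannot be told apart. Exons of 18 of the 58 genes overlap a gene on the opposite strand in this way, among them Egf, Pdgfra, Csf1r, Fgfr1, Fgfr3, Pdgfa, Pdgfc and Tgfa. The call was lost in 3 of 12 alternatives (adjusted p 0.00603 to 0.294).

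Ntrk2, which encodes TrkB, the receptor of Bdnf, was at 0 and 0.0923 in the normal prostates and at 8.95 and 2.00 in the tumours. Tumour 1 was thus higher than tumour 2 for both ligand and receptor. The log2 difference of 2.39 (SE 0.66) missed the threshold (limma adjusted p = 0.0653), and it passed in 5 of 12 alternatives (adjusted p 0.0164 to 0.341). Ntrk3, the receptor of neurotrophin 3, was at 1.36 and 2.43 against 0.228 and 0.268, a difference of -1.19 (SE 0.37, adjusted p = 0.0839). The groups did not overlap for either receptor, and they stood in opposite order. Ntrk2 passed the filter through the tumours alone and Ntrk3 through the normal prostates alone. This order was therefore a condition of testing them and supports nothing. Of their summed level Ntrk2 made up at most 3.66% in a normal prostate, but 97.5% in tumour 1 and 88.2% in tumour 2.

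Ret, the signalling receptor of the GDNF family, was at 0.391 and 0.108 in the normal prostates, 2.08 in tumour 1 and 18.6 in tumour 2. Both tumours were above the normal prostates, but tumour 2 was 8.90 times tumour 1, and the log2 difference of 2.65 (SE 0.94) did not pass the threshold (limma adjusted p = 0.107). It passed without tumour 1 (3.98, adjusted p = 0.0397, with 0.0397 to 0.411 over the alternatives). Of its partners among the 58 genes, Gfra1 did not exceed 0.882, and Gfra3 and the ligand Gdnf were listed at 0 throughout.

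**Figure D2:**
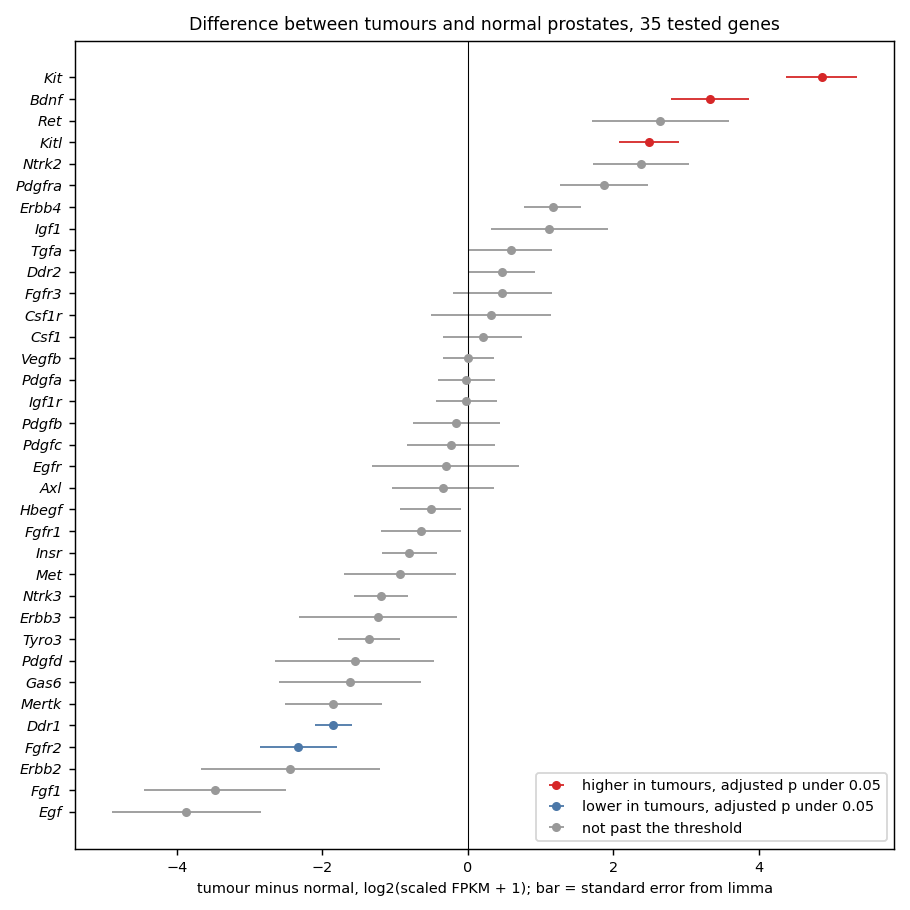
Log2 difference between tumours and normal prostates for the 35 tested genes, with the standard error from limma as a bar; red marks the 3 genes that rose, blue the 2 that fell and grey those not past the threshold. Kit, Bdnf and Kitl lie to the right, Ddr1 and Fgfr2 to the left with short bars, and Egf, Fgf1 and Erbb2 lie further left with bars of 0.98 to 1.23.

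Ddr1, a receptor for collagen that is common in epithelia, was at 79.9 and 82.6 in the normal prostates and at 21.5 and 22.1 in the tumours. It was the most abundant of the 58 genes in both normal prostates. Libraries of a group lay close together, the normal mean was 3.73 times the tumour mean, and the log2 difference was -1.85 (SE 0.26, limma adjusted p = 0.0225). Ddr1 lies at chr17:35681567-35704139 on the minus strand, and its exons overlap Gm4577 on the opposite strand. On the FPKM as deposited the difference was -0.93 and the call was lost (adjusted p = 0.0553), where the median of all genes was itself moved to 0.86. Over the 12 alternatives the call was lost in 3 (adjusted p 0.0231 to 0.294). Ddr2, the collagen receptor of mesenchymal cells, was at 1.11 and 1.17 against 1.21 and 3.01 (adjusted p = 0.470).

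Fgfr2, the receptor through which prostate epithelium receives stromal fibroblast growth factors, was at 8.30 and 5.69 in the normal prostates, 0.0888 in tumour 1 and 1.25 in tumour 2. Both tumours were below the normal prostates, with a log2 difference of -2.33 (SE 0.53, limma adjusted p = 0.0464). Few fragments lay behind these values, about 38.3 and 39.3 for the normal prostates against 0.4 for tumour 1 and 10.4 for tumour 2. The call was lost in 9 of 12 alternatives, although the difference stayed negative in all of them (-4.37 to -1.08, adjusted p 0.0355 to 0.304). Without tumour 1 the adjusted p was 0.116 and without tumour 2 it was 0.0504. Fgfr2 lies at chr7:130162451-130266808 on the minus strand. Exons listed under its name in GENCODE share positions with Ctbp2 on the same strand. Whether these exons lie within the deposited position of Fgfr2 was not examined. The summed luminal, basal and smooth muscle markers were also lower in each tumour and lowest in tumour 1. Neuroendocrine and macrophage sums were higher in each tumour. Between the normal prostates, replicate 1 had the higher Fgfr2 level but the lower luminal sum. A link of Fgfr2 to any of these markers was not tested.

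The other FGF receptors and ligands did not pass the threshold. Fgfr1 was at 7.97 and 4.29 against 2.18 and 5.14 (limma adjusted p = 0.423). Fgfr3 was at 3.47 and 0.839 against 5.03 and 1.62 (adjusted p = 0.635), so that both receptors overlapped between the groups. Fgfr2 was the largest FGF receptor in each normal prostate, at 42.1% and 52.6% of the summed level. Fgfr3 was the largest in tumour 1 (67.6%) and Fgfr1 in tumour 2 (64.1%). Fgfr4 was above 0 only in tumour 1, at 0.140.

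Fgf1, a ligand of all FGF receptors, was the most abundant of the FGF genes in the normal prostates. It was at 29.1 and 28.6 in the normal prostates, listed at 0 in tumour 1 and at 6.16 in tumour 2. The groups did not overlap, and the log2 difference of -3.48 (SE 0.98) came with a limma adjusted p of 0.0678. It passed the threshold in 3 alternatives, with a pseudocount of 5 (adjusted p = 0.0369) and without tumour 1 or tumour 2 (0.0440 and 0.0193), over a range of 0.0193 to 0.340. Fgf7 and Fgf10, the stromal ligands of the epithelial form of Fgfr2, stayed at or below 1.79 in every library and were not tested. Fgf9 did not exceed 0.309. Fgf13, which does not signal through the receptors as the secreted ligands do, was at most 0.360 in 3 libraries and at 8.62 in tumour 2, on about 36.9 fragments.

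**Figure D3:**
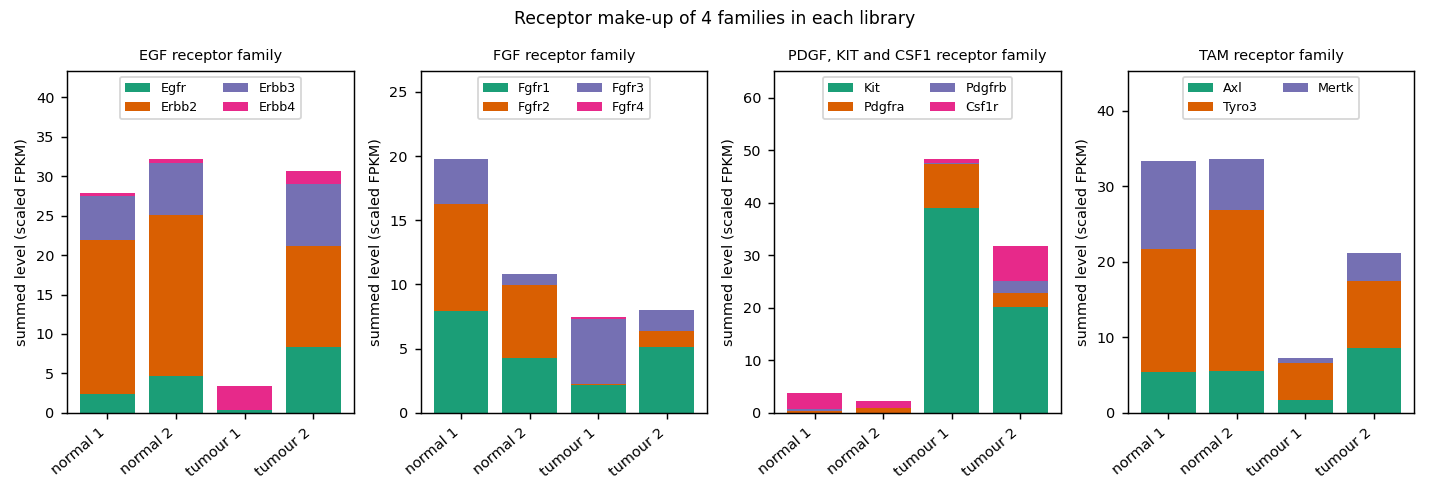
Summed level of the receptors of 4 families in each library, in scaled FPKM, with each colour a receptor. The EGF and TAM receptor bars are lowest in tumour 1, the FGF receptor bars hold less Fgfr2 in both tumours, and the PDGF, KIT and CSF1 bars of the tumours consist mostly of Kit.

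None of the EGF receptor family and its ligands was called. At an unadjusted p under 0.05 limma gave 1 of the 7 tested as higher (Erbb4) and 1 as lower (Egf). Over all genes tested these shares were 21.5% and 18.3%. Erbb2, the co-receptor that binds no ligand of its own, was at 19.6 and 20.4 in the normal prostates, 0.0862 in tumour 1 and 12.8 in tumour 2 (log2 difference -2.44, SE 1.23, adjusted p = 0.203). Erbb3, its partner for neuregulin signals, was at 5.49 and 6.60, 0 in tumour 1 and 7.89 in tumour 2 (adjusted p = 0.435). Without tumour 2 the log2 difference was -4.27 for Erbb2 and -2.81 for Erbb3, and without tumour 1 it was -0.61 and 0.34. Egfr was at 2.34 and 4.68 against 0.335 and 8.32 (adjusted p = 0.840). For these 3 receptors tumour 1 was lowest, and for Egfr and Erbb3 tumour 2 was the highest of the 4 libraries. Exons of Erbb2 overlap Mien1 on the opposite strand.

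Erbb4, a neuregulin receptor, was the exception in tumour 1. It was at 0.459 and 0.466 in the normal prostates and at 3.01 in tumour 1 and 1.68 in tumour 2, with a log2 difference of 1.16 (SE 0.39, limma adjusted p = 0.0968). The groups did not overlap, with about 2 and 3 fragments against 29 and 14. It passed the threshold in 3 alternatives, on the FPKM as deposited (adjusted p = 0.0391), without tumour 1 (0.0255) and without tumour 2 (0.0199), over a range of 0.0199 to 0.388. Of the summed EGF receptor level, Erbb2 made up 70.3% and 63.4% in the normal prostates and 41.7% in tumour 2. In tumour 1 Erbb4 made up 87.7%, of a sum that was 3.43 beside 27.9 to 32.1 in the other libraries.

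Egf, the founding ligand of this family, was at 38.0 and 42.4 in the normal prostates, listed at 0 in tumour 1 and at 6.94 in tumour 2. The groups did not overlap, and the log2 difference was -3.87 (SE 1.02), which did not pass the threshold (limma adjusted p = 0.0598). With a pseudocount of 5 it was 0.0321, without tumour 1 it was 0.0423 and without tumour 2 it was 0.0183, over a range of 0.0183 to 0.328. Among the other ligands, Hbegf was at 3.86 and 5.51 against 2.76 and 3.13, and Tgfa at 0.925 and 1.88 against 1.33 and 4.35. Btc did not exceed 1.64 and Nrg1 was above 0 only in normal prostate 1, at 0.735.

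The insulin and IGF receptors gave no call by limma, also at an unadjusted p under 0.05. Igf1r, the growth-promoting receptor of IGF1 and IGF2, was at 6.33 and 6.00 against 7.58 and 4.79 (adjusted p = 0.972). Insr, the insulin receptor, was at 9.97 and 8.62 against 4.60 and 5.15, and the groups did not overlap (log2 difference -0.81, SE 0.38, adjusted p = 0.177). On the FPKM as deposited the Insr difference was 0.012, so that its direction rests on the scaling. Insrr, an insulin-receptor relative that senses alkaline pH, was listed at 0 in 3 libraries and at 6.45 in tumour 2, on about 62.7 fragments. Igf1 was at 1.65 and 0 against 0.931 and 5.48.

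Met, the receptor of hepatocyte growth factor, was at 3.32 and 3.13 in the normal prostates, 0.0641 in tumour 1 and 3.58 in tumour 2. Only tumour 1 was low, and without tumour 2 the gene passed the threshold (log2 difference -1.99, adjusted p = 0.0260), whereas with both tumours it did not (limma adjusted p = 0.406, with 0.0260 to 0.779 over the alternatives). Mst1r, the related receptor of macrophage-stimulating protein, did not exceed 0.915. The ligand Hgf did not exceed 2.19, its level in tumour 2.

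The VEGF receptors of endothelium were at low levels. Flt1, Kdr and Flt4 stayed at or below 0.315 in the normal prostates and in tumour 1, and were at 1.36, 1.67 and 1.90 in tumour 2. The endothelial marker sum was also highest in tumour 2, as were the neuroendocrine, macrophage, fibroblast, pericyte, mast cell and adipocyte sums. The luminal, basal, smooth muscle, T and NK cell and Schwann cell sums were highest in a normal prostate. A link of the VEGF receptors to any of these markers was not tested. Vegfb was the more abundant ligand, at 13.8 and 15.5 against 12.2 and 17.6 (limma adjusted p = 0.992). Vegfc did not exceed 0.869.

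Axl, Tyro3 and Mertk, the TAM receptors that bind Gas6 and take part in the clearance of dying cells, gave no call. Limma gave 2 of the 4 genes tested, Tyro3 and Mertk, as lower at an unadjusted p under 0.05, beside 18.3% of all genes. Tyro3 was at 16.2 and 21.3 in the normal prostates and at 4.91 and 8.90 in the tumours, without overlap (log2 difference -1.36, SE 0.42, adjusted p = 0.0833). Mertk was at 11.7 and 6.77 against 0.616 and 3.70, also without overlap (log2 difference -1.85, SE 0.67, adjusted p = 0.111). Both receptors were thus lower in each tumour, and neither passed the threshold in any of the 12 alternatives (lowest adjusted p = 0.0628 for Tyro3 and 0.0775 for Mertk). Axl was at 5.48 and 5.49 against 1.71 and 8.58. The ligand Gas6 was the second most abundant of the 58 genes in the normal prostates, at 51.2 and 45.3. Gas6 was at 4.84 in tumour 1 and 42.7 in tumour 2 (adjusted p = 0.269). Its log2 difference was -3.07 without tumour 2 and -0.17 without tumour 1. Its exons overlap Tmem255b on the opposite strand.

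Alk and Ror1 are best known from the developing nervous system and embryo. Alk was above 0 only in tumour 1, at 0.795 on about 11 fragments, and Ror1 only in tumour 2, at 0.146 on about 1 fragment.

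The tumours differed from each other across the list. Of the 35 tested genes, 28 (80.0%) were higher in tumour 2 than in tumour 1, beside 46.9% of all genes tested. Tumour 1 was below both normal prostates for 22 genes and above both for 10, beside 42.8% and 47.5% of all genes tested. Tumour 2 was below both for 12 and above both for 19, beside 41.0% and 45.7%. The median log2 difference from the normal prostates was -0.74 in tumour 1 and 0.25 in tumour 2, with 0.10 and 0.08 over all genes. Erbb2, Erbb3 and Pdgfd were the 3 genes whose tumours differed at least 8-fold in scaled FPKM + 1, with a level of at least 5 in the higher one, and tumour 2 was higher for each. Kit, Bdnf, Ntrk2, Pdgfra, Erbb4, Fgfr3 and Igf1r ran the other way, being higher in tumour 1. With 1 library on each side there is no test of these contrasts.

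**Figure D4:**
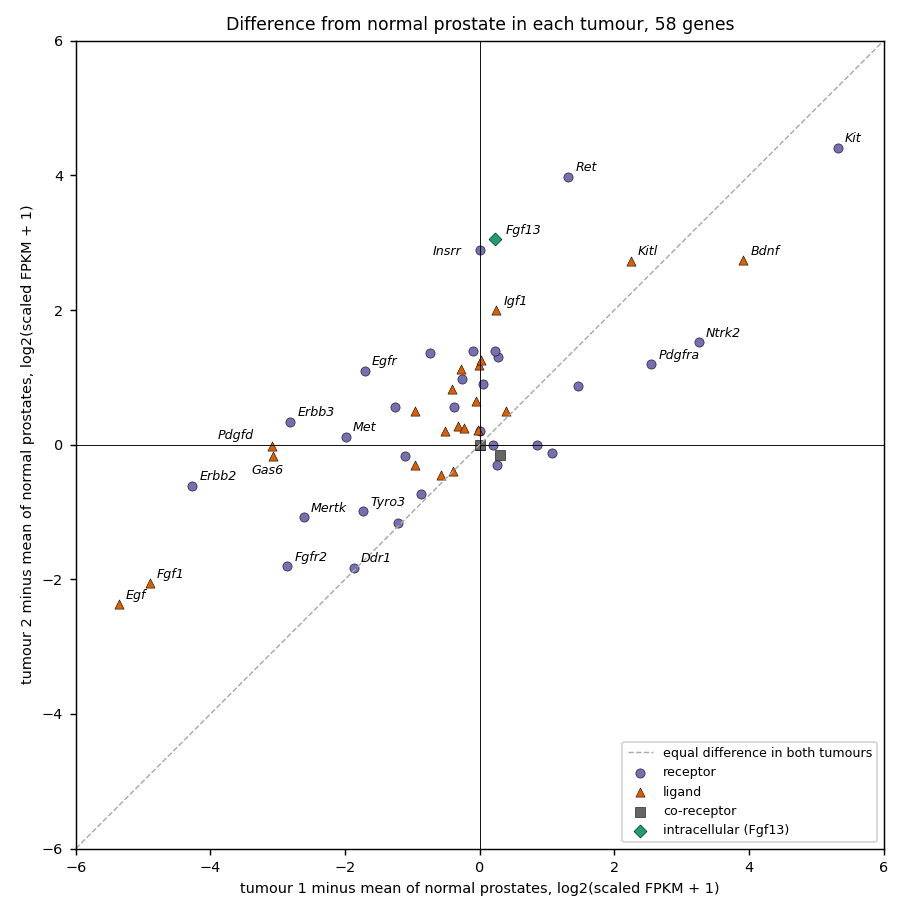
Difference from the mean of the normal prostates in tumour 1 (horizontal) and tumour 2 (vertical) for the 58 genes, both as log2(scaled FPKM + 1); the dashed line marks an equal difference. Most points lie above the line, Ddr1 lies on it, and Kit, Bdnf, Ntrk2 and Pdgfra lie below it on the side where both tumours are higher.

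Beyond the 58 genes, 137 genes of 9 lists that act with or below these receptors were examined. Of the 101 tested, 8 rose and 4 fell (11.9%, beside 18.1% of all genes), and the median log2 difference was 0.47. Feedback inhibitors and targets of ERK held 4 that rose, of 18 tested (22.2%, beside 9.85% of all genes tested), with a median of 1.07. Of these 4, Dusp4, Etv5 and Spry4 passed the filter through the tumours alone. A higher deposited level there was a condition of testing them, so their direction supports nothing. Dusp4, a phosphatase that switches off MAP kinases, was at 0 in each normal prostate and 24.7 and 30.5 in the tumours (limma adjusted p = 0.0195). Etv5, a transcription factor induced by FGF signals, was at 0 and 0.522 against 11.4 and 7.12 (adjusted p = 0.0262). The RAS to ERK inhibitor Spred2 was at 2.79 and 1.06 against 19.6 and 17.8 (0.0282). Spry4, another such inhibitor, reached 3.77 and 2.22 in the tumours from 0 in each normal prostate (0.0352). The other 14 were not past the threshold, among them Dusp6 at 6.82 and 3.16 against 10.7 and 12.2 (0.145) and Spry1 at 15.7 and 8.36 against 1.03 and 4.96 (0.116).

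Of the kinases between receptor and nucleus, few passed the threshold. Araf, a RAF kinase, was the only call among 12 RAS to ERK genes, and fell from 82.7 and 77.0 to 33.7 and 27.8 (log2 difference -1.35, SE 0.27, adjusted p = 0.0358). The 10 PI3K to AKT genes reported here gave no call, also at an unadjusted limma p under 0.05. The 20 adaptors tested gave no call. At an unadjusted p under 0.05 limma gave 3 higher and 2 lower, beside 21.5% and 18.3% of all genes tested.

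Among co-receptors and binding proteins, Sdc3, a heparan sulfate proteoglycan, was at 2.25 and 2.84 against 37.2 and 23.0 (log2 difference 3.10, SE 0.41, limma adjusted p = 0.0219), the only call of 7 FGF co-receptors and carriers. Igf2r, which clears IGF2 and carries lysosomal enzymes, was at 36.1 and 53.0 against 3.03 and 9.75 (log2 difference -2.76, SE 0.57, adjusted p = 0.0398), the only call of 8 genes of the IGF2 and IGF-binding list. The 5 ligand-processing genes tested gave no call. At an unadjusted p under 0.05 limma gave 0 higher and 1 lower, beside 21.5% and 18.3% of all genes. The ligand-processing genes included Spint2, an inhibitor of HGF-activating proteases, at 927 and 947 against 11.3 and 279 (adjusted p = 0.114). The 5 other receptors tested gave no call (1 higher and 0 lower at an unadjusted p under 0.05), with Gfra4, a co-receptor of Ret, at 0 and 1.54 against 22.3 and 6.16 (adjusted p = 0.0603).

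Other ligands held 3 that rose and 2 that fell, of 16 tested (31.25%, beside 18.1% of all genes tested). The 3 that rose (Ptn, Fgf14 and Fgf18) passed the filter through the tumours alone. Ntf5, which fell, passed it through the normal prostates alone. The direction of these genes was a condition of testing them and supports nothing. Ptn, a heparin-binding growth factor, was at 0.512 and 0 against 20.7 and 26.5 (limma adjusted p = 0.0195). Fgf14, an intracellular relative of Fgf13, reached 9.77 and 12.0 in the tumours from 0 in each normal prostate (0.0195). Nrtn, a GDNF-family ligand that signals through Ret, was at 11.3 and 22.3 against 2.01 and 1.78 (log2 difference -2.55, adjusted p = 0.0337). Ntf5, the other neurotrophin that binds the receptor encoded by Ntrk2, was at 6.87 and 2.86 against 0 and 0.276 (log2 difference -2.29, adjusted p = 0.0431). Bdnf and Ntf5, ligands of the same receptor, passed the filter through opposite groups, so their opposite directions were a condition of testing them. Fgf18, which also rose, reached 1.85 and 2.18 in the tumours from 0 in each normal prostate (0.0390).

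**Figure D5:**
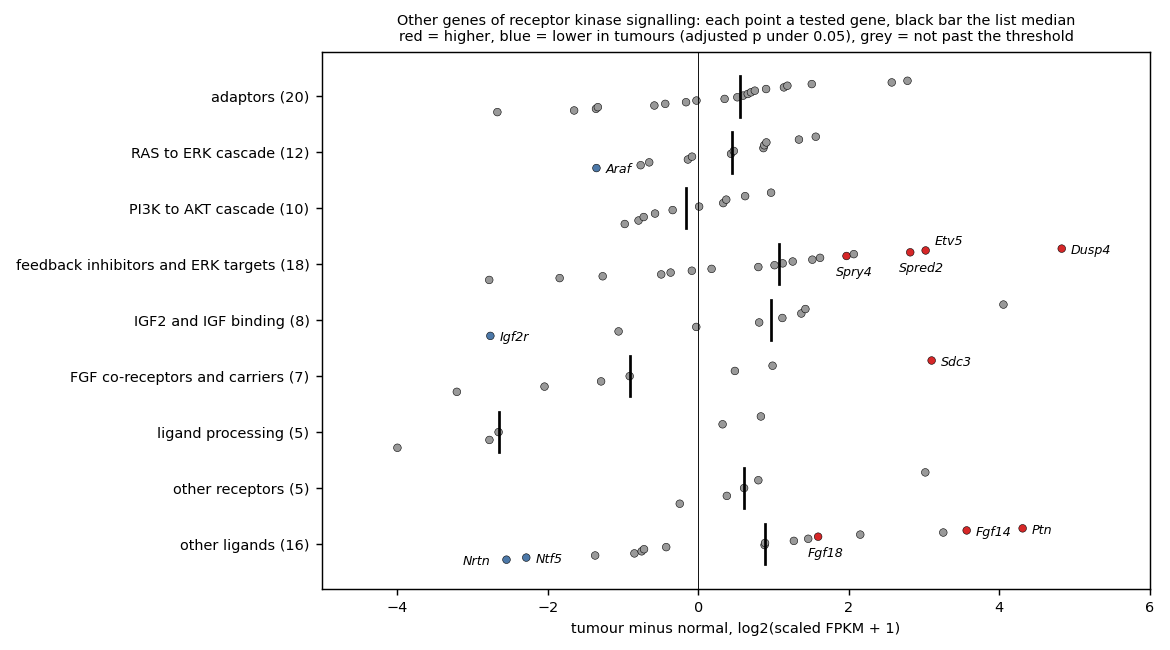
Log2 difference between tumours and normal prostates for the tested genes of 9 lists acting with or below the receptors; each point is a gene, black bars are list medians, and the number tested is beside each list. The 8 genes that rose are red and the 4 that fell are blue, with Dusp4 and Ptn furthest to the right.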

How the data were processed

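Total RNA of 2 normal prostates and 2 TRAMP tumours was sequenced, and per the labels the libraries used a TruSeq RNA kit. The authors deposited FPKM per gene with confidence bounds, per the file headers. Per the submitters' processing notes, the tools were Cuffdiff 2.1.1, Cufflinks 2.1.1, TopHat2 2.0.8 and Trim Galore, and the build was mm10 (GRCm38). The sources used here do not give the annotation, the strand setting or any scaling of the libraries against each other. FPKM were summed by gene name, after 27 of 24883 entries named as dates were left out, and divided by median-of-ratios factors over 11469 genes above 0 in all libraries. FPKM are not counts, so genes whose deposited FPKM reached 1 in 2 or more libraries were tested with limma 3.58.1 in R 4.3.3 on log2(scaled FPKM + 1), with an intensity trend, two-sided, Benjamini-Hochberg adjusted. The code was tested on simulated data. Fragment numbers were derived from the width of the deposited bounds and are approximate, so no counting interval is given. Deposited starts were shifted by 1 to count from 1, after which 62.0% of 22813 matched starts equalled RefSeq (3.20% before). Exon overlaps were looked up in GENCODE for the 58 genes only. Tables were handled with Python 3.11.15 and pandas 2.3.3.

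Genes described in full were those past the threshold and those whose tumours differed at least 8-fold in scaled FPKM + 1 with the higher at 5 or more. Of the other lists, at most 4 genes past the threshold per list were named, by size, and Fgf18 and further genes were chosen after their values were seen. Members and lists were chosen with earlier results of these data known. Some list genes are not reported here and stay out of the list counts, sums and medians. The labels give no batch, and 12 alternative analyses were run.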

Additional observations from a re-analysis of the deposited data

How the results depend on the processing

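No paired analysis was possible because the labels give no replicate numbers shared by the groups. Against 3 higher and 2 lower genes, the list had 6 and 0 on the FPKM as deposited (2 lower at an unadjusted p under 0.05), where Erbb4, Ntrk2 and Pdgfra were added. It had 1 and 1 with no filter on low values, 1 lower with a pseudocount of 0.1, with voom on implied fragments and with scaling to the FPKM sum without genes above 1%, and 4 lower with a pseudocount of 5, which added Egf and Fgf1. Leaving out each library gave 0 to 5 higher and 0 to 7 lower. The 9 lists gave 8 and 4 calls, but 4 and 0 with no filter (11 lower at an unadjusted p under 0.05), 37 and 1 on the FPKM as deposited, 24 and 1 with the FPKM sum, and 2 lower with a pseudocount of 0.1. Leaving out each library gave them 0 to 15 and 0 to 11.

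Over all genes 1296 rose and 1088 fell. The numbers were 245 and 249 with no filter, 3681 and 427 on the FPKM as deposited, and 2537 and 554 with the FPKM sum. Without normal prostate 1 limma called 0 genes either way (1204 higher and 958 lower at an unadjusted p under 0.05), and without normal prostate 2 also 0 (1248 and 928), so leaving out each library gave 0 to 1852 higher and 0 to 1923 lower. The share of calls that were higher was 54.4%, but 89.6% on the FPKM as deposited and 82.1% with the FPKM sum. These scalings moved the median log2 difference of all genes from 0.07 to 0.86 and 0.62, so directions under them are relative to that shift.

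Of 16 genes whose sign turned under some alternative, none was called with all libraries in the fit. On the FPKM as deposited the log2 difference was 0.35 for Egfr, 0.23 for Hbegf, 0.12 for Fgfr1, 0.79 for Igf1r, 0.012 for Insr, 0.85 for Pdgfa, 0.13 for Pdgfb, 0.15 for Pdgfc and 0.42 for Axl. With the FPKM sum it was 0.13 for Egfr, 0.0058 for Hbegf, 0.54 for Igf1r, 0.59 for Pdgfa, 0.043 for Pdgfb, 0.028 for Pdgfc and 0.19 for Axl. It was 0.23 for Pdgfb with a pseudocount of 0.1, -0.14 for Csf1 with quantile normalization and -0.034 for Vegfb with voom. Leaving out each library gave -1.71 to 1.10 for Egfr, -2.81 to 0.34 for Erbb3, -0.012 to 1.18 for Tgfa, -0.17 to 1.11 for Fgfr3 and -0.31 to 0.26 for Igf1r. It gave -1.99 to 0.12 for Met, -0.74 to 1.37 for Csf1r, -0.32 to 0.28 for Pdgfa, -0.87 to 0.56 for Pdgfb and -0.96 to 0.51 for Pdgfc. It gave -0.42 to 0.82 for Csf1, -0.24 to 0.25 for Vegfb and -1.26 to 0.56 for Axl. The cause was not tested. With 2 libraries a group, and 1 where a library is left out, the lone library is assumed to vary like the other group. Depth limits the genes on few fragments, such as Erbb4, Fgfr2 and Ntrk3.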
